A study of Mus musculus with 4 samples.

Results

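A promoter region is called WT-restricted here when both wild-type (WT) libraries had a peak of open chromatin at the start of a protein-coding gene and neither library of the CTCF-K20R mutant had one. There were 276 such regions among 15357 promoter regions (1.8%) and 80380 regions in all. They were found by merging the peaks of 4 lists where they shared at least 1 bp and by keeping regions with a peak in both WT lists, none in either K20R list and the strongest summit within 1000 bp of a transcription start site (TSS). Of all 80380 regions, 8341 were WT-restricted (10.4%), so 8065 of these lay outside promoters. The values that chose the members are the presence of a WT peak and the lack of a K20R peak, so these are described below and not tested.

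ATAC-seq measures where DNA is exposed in chromatin, by letting a transposase insert sequencing adapters there, and was run on embryoid bodies at day 4. Embryoid bodies are aggregates of differentiating embryonic stem cells, here of the mouse line E14Tg2A, which was kept on embryonic fibroblast feeder cells with LIF and 2i inhibitors and differentiated in hanging drops with serum and without LIF. WT cells carried unedited CTCF, and in CTCF-K20R cells lysine 20 of CTCF had been replaced by arginine with CRISPR/Cas9 and a donor vector, and edited colonies had been picked with drug selection, a step not described for the WT cells. There were 2 biological replicates of each genotype, and how many edited clones they stand for is not given in the sources used here.

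A promoter is the stretch around a TSS where transcription factors and RNA polymerase assemble. Most promoters of genes used in many cell types are rich in CpG dinucleotides and stay open nearly everywhere, whereas promoters of tissue genes are often poor in CpG and open with the lineage. CTCF is a zinc finger protein that stops cohesin on chromatin and so shapes loops between promoters and enhancers.

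Sequences of 8 members are given first, each read from the mm10 genome (RefSeq copy) in the direction of transcription around the strongest summit, except that the stretches at Actc1 and Myl2 are cut short downstream and that at Myl2 ends before its summit. The first are the strongest members by WT rank, which lay at 4931440F15Rik (chr11:29826264-29826464, minus strand, in Eml6, outside its exons), at Grrp1 (chr4:134254880-134255080, minus strand, upstream of the gene) and at Hsdl1 (chr8:119569978-119570178, minus strand, up to 18 bases into the 5′ UTR). Capitals mark a T-box site, a GATA site and a TATA box at 4931440F15Rik, an octamer at Grrp1 and an E-box at Hsdl1, in whichever strand they matched.
4931440F15Rik: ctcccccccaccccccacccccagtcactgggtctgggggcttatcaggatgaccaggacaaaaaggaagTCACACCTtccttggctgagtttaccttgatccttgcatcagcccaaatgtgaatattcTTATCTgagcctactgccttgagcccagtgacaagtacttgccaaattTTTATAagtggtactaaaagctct
Grrp1: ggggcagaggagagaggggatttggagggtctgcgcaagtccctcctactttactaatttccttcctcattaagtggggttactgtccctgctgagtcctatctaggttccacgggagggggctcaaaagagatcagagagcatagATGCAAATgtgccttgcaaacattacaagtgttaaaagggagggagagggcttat
Hsdl1: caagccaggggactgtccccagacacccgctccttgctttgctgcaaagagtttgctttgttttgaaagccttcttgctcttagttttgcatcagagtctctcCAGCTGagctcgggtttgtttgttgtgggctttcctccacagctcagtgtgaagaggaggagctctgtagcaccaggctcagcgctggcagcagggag

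The second set are the members at genes of contractile proteins, shown because 5 members lay at such genes of the cardiac list. Actc1 (chr2:114052858-114053037, minus strand) and Myl2 (chr5:122100885-122100980, plus strand) are shown up to 30 bases of annotated 5′ UTR. The windows at Tnni1 (chr1:135800537-135800737, plus strand) and Tnnt2 (chr1:135841189-135841389, plus strand) lay inside the genes and outside annotated exons. The Myl4 window is not shown because most of it is annotated 5′ UTR. Capitals mark a CArG box, the site of serum response factor, at Actc1 and a CCAAT box at Tnnt2.
Actc1: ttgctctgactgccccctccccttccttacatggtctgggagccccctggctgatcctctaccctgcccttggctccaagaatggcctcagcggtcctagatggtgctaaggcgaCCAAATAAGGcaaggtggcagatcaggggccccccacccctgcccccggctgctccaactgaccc
Myl2: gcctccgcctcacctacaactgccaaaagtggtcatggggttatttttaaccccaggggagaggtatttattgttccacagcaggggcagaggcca
Tnni1: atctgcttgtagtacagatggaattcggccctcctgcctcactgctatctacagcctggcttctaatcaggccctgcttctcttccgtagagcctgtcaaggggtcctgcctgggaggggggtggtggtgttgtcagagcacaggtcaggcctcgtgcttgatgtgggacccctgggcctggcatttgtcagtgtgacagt
Tnnt2: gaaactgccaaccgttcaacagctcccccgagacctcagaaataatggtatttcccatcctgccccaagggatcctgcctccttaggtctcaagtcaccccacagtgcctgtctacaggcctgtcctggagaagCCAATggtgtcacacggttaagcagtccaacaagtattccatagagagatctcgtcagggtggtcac

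The last is the member upstream of the heart transcription factor gene Hand2 (chr8:57320334-57320534, plus strand), a window that lies in an exon of the divergent noncoding gene Hand2os1. Capitals mark a CCAAT box.
Hand2: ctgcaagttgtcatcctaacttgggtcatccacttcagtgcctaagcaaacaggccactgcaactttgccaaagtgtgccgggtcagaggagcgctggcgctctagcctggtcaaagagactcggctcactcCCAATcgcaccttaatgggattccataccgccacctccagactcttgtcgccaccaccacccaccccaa

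The libraries were compared first. Each list held between 51823 and 66703 peaks, with the longer lists in WT. Among them, 14931 and 15066 WT peaks and 14808 and 14739 K20R peaks had their summit within 1000 bp of a protein-coding TSS. This is 14998.5 ± 95.5 in WT and 14773.5 ± 48.8 in K20R (SD, n = 2), a difference of 225 peaks with an exact two-sided permutation p of 0.333, the smallest that 2 against 2 libraries allow. Read totals were not used here, and depth entered only through the peaks themselves, whose lowest summit pileup was 7 reads in both WT lists and 8 in both K20R lists. The promoters of the mesoderm genes T, Mesp1 and Eomes and of the pluripotency genes Pou5f1 and Nanog had a peak in every library. Of 27 listed early mesoderm genes, 20 had a promoter region common to all libraries (74.1%) and 7 had no promoter peak. Such common regions were also found at 64.4% of all protein-coding genes and at 84.2% of listed neuroectoderm genes. These peaks therefore do not identify the tissue.

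The WT-restricted promoter regions outnumbered the opposite kind in the lists as deposited. There were 147 K20R-restricted promoter regions (0.957% of promoter regions), and the log2 ratio of WT- to K20R-restricted was 0.91. The direction depended on list length: with the same number of strongest peaks taken from every list the counts were 164 for WT and 262 for K20R, which makes the log2 ratio -0.68. Among peaks with −log10 q of 10 or more the counts were 122 and 109. Without K20R replicate 1 there were 335 and 302, and without WT replicate 1 there were 489 and 204. In each case the genotype left with 1 library needs a peak in 1 list and the other in both. The counts without a library are therefore uneven by construction. The excess of WT-restricted over K20R-restricted promoter regions was thus found with the full lists, of which the WT lists are the longer, and not at equal length.

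The members were weak peaks of both WT libraries. The percentile of a peak in its own list, where 100 is the strongest by p, had a median of 25.8 in WT replicate 1 (range 0.344 to 91.2) and 26.7 in WT replicate 2 (range 0.184 to 86.4). Promoter regions common to all 4 libraries had medians of 85.3 and 86.3. The median summit of a member held 17 reads in WT replicate 1 and 23 in WT replicate 2, which was 3.19-fold and 3.81-fold over the local background, against 8.31-fold and 9.96-fold at common promoter regions. The −log10 q reached 10 in both WT lists at 31 members (11.2%), and 24 members in WT replicate 1 and 13 in WT replicate 2 had a q above 0.05. Members were also short, with a median of 576 bp against 1342 bp for common promoter regions. Across the 276 members, percentiles in the WT replicates had a Spearman correlation of 0.739, given as a description since both were used in the choice, and 162 members ranked higher in WT replicate 2.

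**Figure D1:**
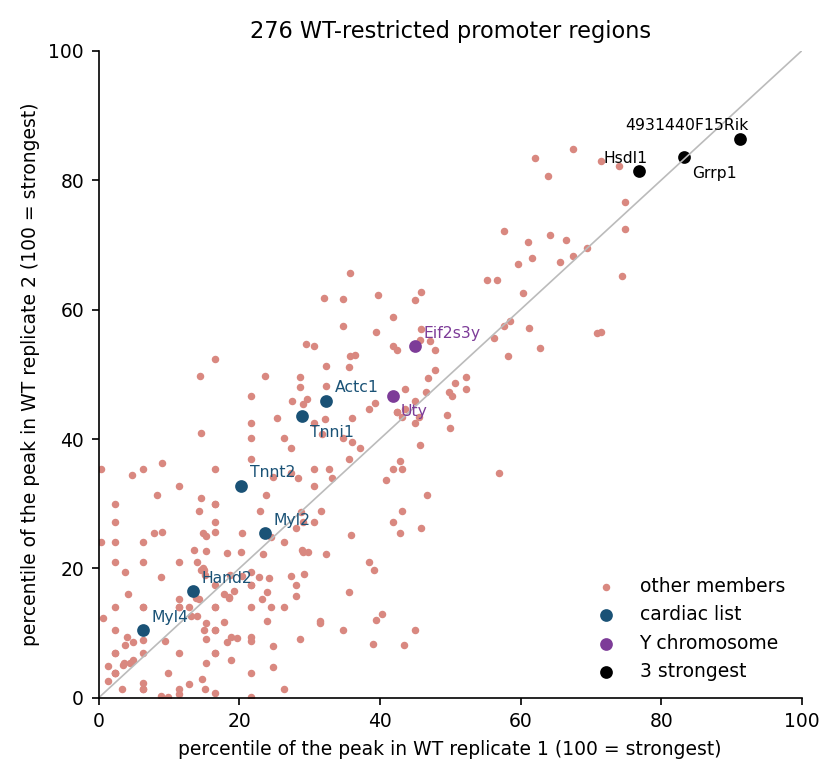
Percentile of each of the 276 members in WT replicate 1 (horizontal) and WT replicate 2 (vertical), with 100 the strongest peak of a list and the grey line marking equal values. Most members sit in the lower left, around medians of 25.8 and 26.7, the 3 strongest are at the upper right, and the 6 members of the cardiac list lie at or below percentiles of 32.4 and 45.9.

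Members that rested on stronger peaks were fewer. Of the 276 members, 148 (53.6%) were still WT-restricted promoter regions when every list was cut to the same number of strongest peaks, 87 (31.5%) at a −log10 q of at least 5 and 31 (11.2%) at a −log10 q of at least 10. These counts were added after the data were seen.

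The lack of a K20R peak was examined next, because peak numbers in the deposited lists have gaps. The lists hold between 50.5% and 60.8% of their numbers, so called peaks had been taken out by a rule that is not given in the sources used here. At 108 members (39.1%, Wilson 95% interval 33.6 to 45.0) no number was missing between the neighbouring peaks of either K20R list, so no called peak can have been removed there. Taken singly, this held for 132 members in the first K20R list and 146 in the second. The same held in the WT lists for 47 of 147 K20R-restricted promoter regions (32.0%), and in the K20R lists for 28.6% of WT-restricted regions outside promoters. At the other 168 members a called K20R peak could have been taken out of the list. The nearest K20R peak lay within 1000 bp of 64 members (23.2%) and within 5000 bp of 158 (57.2%), at a median of 4007.5 bp. No such share is given here for other regions, so whether this is particular to the members was not tested. Here and below intervals cover counting error only, and regions are not replicates of a genotype.

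The sequence of the members set them near distal sites and away from most promoters, although CpG content was not used in the choice. The ratio of observed to expected CpG within 250 bp of the summit had a median of 0.21 (quartiles 0.139 and 0.309). It was 0.188 at WT-restricted regions outside promoters, 0.442 at K20R-restricted promoter regions and 0.766 at common promoter regions. A ratio of at least 0.6, taken as CpG-rich, was found at 7 members (2.54%, 1.23 to 5.14), at 38 of 147 K20R-restricted promoter regions (25.9%, 19.5 to 33.5) and at 76.4% of common promoter regions. The intervals do not overlap, and no test was run over regions. The G+C content had medians of 51.9% at members and 63.7% at common promoter regions.

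Peak strength was then held alike, since weak common promoters could also be CpG-poor. Among the 563 common promoter regions with a mean WT percentile between 14.8 and 43.3, the quartiles of the members, 39.1% were CpG-rich (35.1 to 43.2) and the median ratio was 0.497. Of the 138 members in that range, 3.62% were CpG-rich (1.56 to 8.2) with a median of 0.225. The lower CpG content of the members was therefore also seen at matched strength.

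The CpG-rich members, singled out after their values were seen, included those at Uty, Esx1, Smad7, Cdk2ap1, Pax9 and Bahcc1. Esx1 and Pax9 encode transcription factors of placenta and pharyngeal pouches, and Smad7 encodes an inhibitor of TGF-β and BMP signalling. The Smad7 member (chr18:75370352-75370798) was at percentiles of 36.0 and 43.3 in WT and lay 717 bp downstream of an internal TSS. Smad7 also had 2 common promoter regions, the stronger with WT percentiles of 86.7 and 89.4 and K20R percentiles of 87.2 and 92.0.

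**Figure D2:**
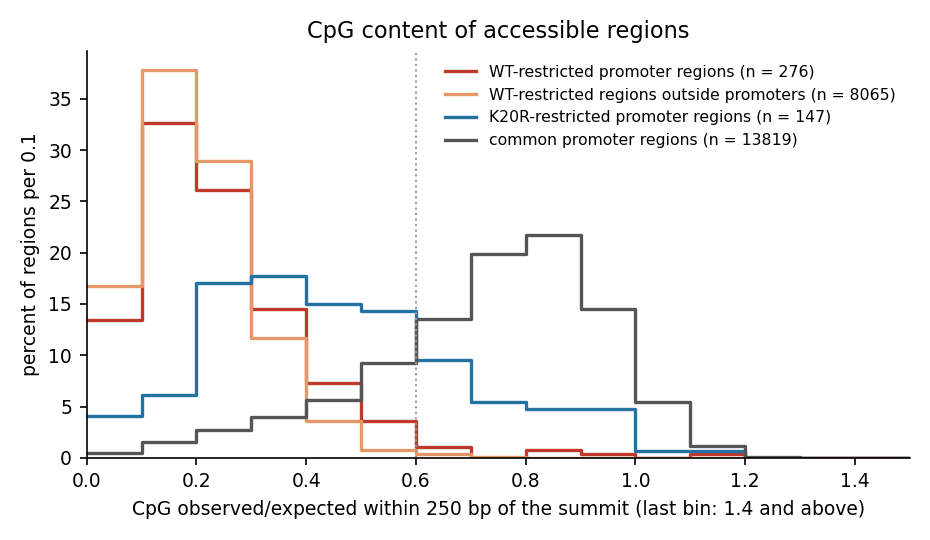
Share of regions, in percent per 0.1, by the ratio of observed to expected CpG within 250 bp of the summit, for members, WT-restricted regions outside promoters, K20R-restricted promoter regions and common promoter regions; the dotted line marks 0.6. The members peak between 0.1 and 0.3 beside the regions outside promoters, and 76.4% of common promoter regions lie at or above 0.6.

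Members were also placed less tightly on the TSS. The strongest summit lay within 100 bp of the nearest TSS at 99 members (35.9%, 30.4 to 41.7), at 57 of 147 K20R-restricted promoter regions (38.8%, 31.3 to 46.8) and at 57.5% of common promoter regions. Its median distance was 188 bp at members and 79 bp at common promoter regions. It lay upstream of the TSS at 159 members (57.6%, 51.7 to 63.3), a share near the 54.5% of common (53.6 to 55.3) and 54.0% of all promoter regions, and at 35.4% of K20R-restricted promoter regions (28.1 to 43.4). In all, 174 members (63.0%) spanned the TSS itself, with no such share given here for other promoter regions.

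**Figure D3:**
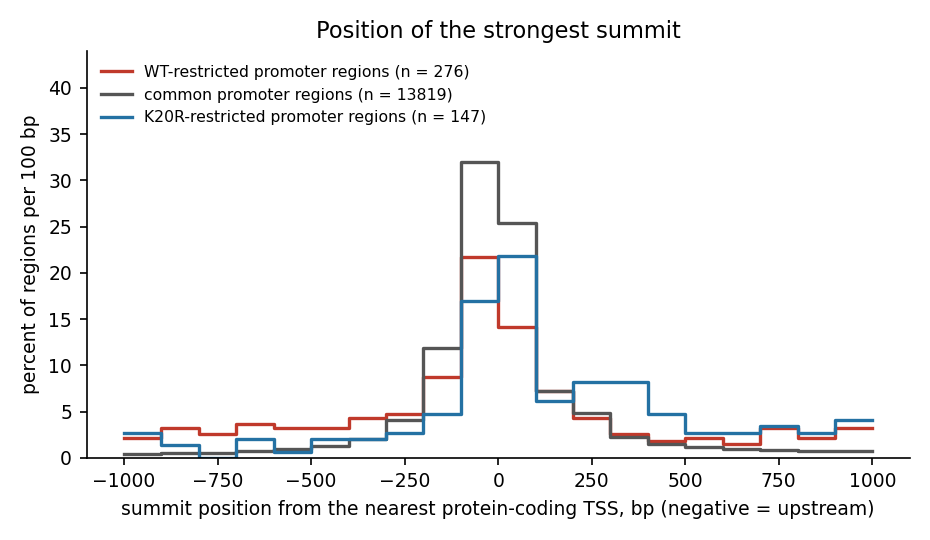
Position of the strongest summit from the nearest protein-coding TSS, in bp with negative values upstream, as the percent of regions per 100 bp, for members, K20R-restricted promoter regions and common promoter regions. Common promoter regions gather at the TSS (57.5% within 100 bp), and members (35.9%) spread farther.

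Some members were a gene's sole open promoter and others an alternative one. At 141 members (51.1%) no other promoter region was found at any TSS of the gene, at 115 (41.7%) the gene had another promoter region common to all libraries, and at 20 (7.25%) it had another that was not common. Of the 141 without another, 115 (81.6%) lay at the outermost TSS of the gene, whereas 32 of the 115 with a common one did (27.8%). Here and below, TSSs are those of protein-coding transcripts, so a gene can have further starts outside this set. Members that stood alone were closer to their TSS, at a median of 115 bp against 315 bp. Of them 139 of 141 were CpG-poor, as were 269 of all 276 members. The share with no missing number in the K20R lists differed between the kinds, 37 of 141 (26.2%) and 60 of 115 (52.2%). Genes of the latter kind have a K20R peak at another TSS by definition, which can be a neighbouring peak that this check uses. How far the grouping itself sets this difference was not tested.

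The other promoters of the same genes were measured in all libraries and did not enter the choice. Percentiles were taken again over common promoter regions alone, so that all libraries were ranked over the same regions. Of 134 common promoter regions at member genes, 28 (20.9%) ranked lower in both K20R libraries than in both WT libraries and 41 (30.6%) ranked higher. Over all 13819 common promoter regions these shares were 23.2% and 24.4%. The median K20R minus WT difference was 0.868 points at member genes and 0.123 over all. These shares were not tested over regions.

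Named members were grouped by gene. The 276 members were nearest to 273 genes, and 274 of the 21827 protein-coding genes (1.26%) had a member within 1000 bp of a TSS, while 150 genes (0.687%) had a K20R-restricted promoter region and 14062 (64.4%) a common one. Of 26 cardiac genes, 6 had a WT-restricted promoter region (23.1%) and 0 a K20R-restricted one, while 15 had a common one and 2 had no promoter peak. The 6 were Hand2, Actc1, Tnnt2, Tnni1, Myl2 and Myl4. All 6 were weak: the count was 0 with a −log10 q of at least 5 or of at least 10, because WT replicate 1 did not reach 5 at any of them. It was 4 with equal list lengths (Actc1, Myl2, Tnni1 and Tnnt2) and 4 where no K20R number was missing. Without WT replicate 1 it was 10, and without K20R replicate 2 there were also 2 cardiac genes with a K20R-restricted region. In each case the genotype left with 1 library needed a peak in 1 list only.

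Hand2 encodes a basic helix-loop-helix factor of the developing heart and limb. Its member (chr8:57319511-57320451) was at percentiles of 13.4 in WT replicate 1 and 16.5 in WT replicate 2, with summit pileups of 27 and 43 reads and folds of 2.1 and 2.15. The summit lay 549 bp upstream of the TSS, the nearest K20R peak was only 142 bp from the region, and no number was missing in the K20R lists. Both WT percentiles were below the median of the members.

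The thin filament genes came next. Actc1, which encodes cardiac α-actin, has 1 TSS among the protein-coding transcripts used here, although the gene as annotated in full begins farther upstream. Its member (chr2:114052441-114053274) was at percentiles of 32.4 and 45.9 with 21 and 40 reads and folds of 3.32 and 4.36. No number was missing in either K20R list, and the nearest K20R peak was 3915 bp away. The window around its summit, 50 bp upstream of the TSS, holds the CArG box printed above. This was the strongest of the 6 cardiac members.

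Tnnt2 encodes cardiac troponin T and Tnni1 slow skeletal troponin I, which embryonic heart also uses. The Tnni1 member (chr1:135800463-135800918) was at 28.9 and 43.6, with 14 and 23 reads, 804 bp downstream of an annotated TSS. The Tnnt2 member (chr1:135840794-135841392) was at 20.3 and 32.8, with 13 and 18 reads, 414 bp downstream of an internal TSS that lies 4521 bp from the outermost one. Both ranked higher in WT replicate 2, and they lie within 50000 bp of each other, so they are neighbours and not separate places in the genome. Numbers were missing in the K20R lists at Tnni1 and not at Tnnt2. Tnnt2 had another promoter region with a peak in K20R replicate 1 alone, at a percentile of 0.102.

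The thick filament gene Myl2, for the ventricular regulatory light chain, had its member (chr5:122100854-122101479) at 23.7 and 25.4 with 15 and 16 reads, the summit 2 bp from the TSS. Myl4, for the atrial and embryonic essential light chain, had a member (chr11:104576914-104577668) at 6.36 and 10.5 with 9 and 11 reads, among the weakest peaks of both lists. Myl4 also had a common promoter region 26432 bp away, with WT percentiles of 90.0 and 92.6 and K20R percentiles of 88.8 and 96.7. The 2 genes thus differed: at Myl2 no other promoter region was found, whereas the common promoter region of Myl4 had a strong peak in every library. Which Myl4 promoter is transcribed was not measured.

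**Figure D4:**
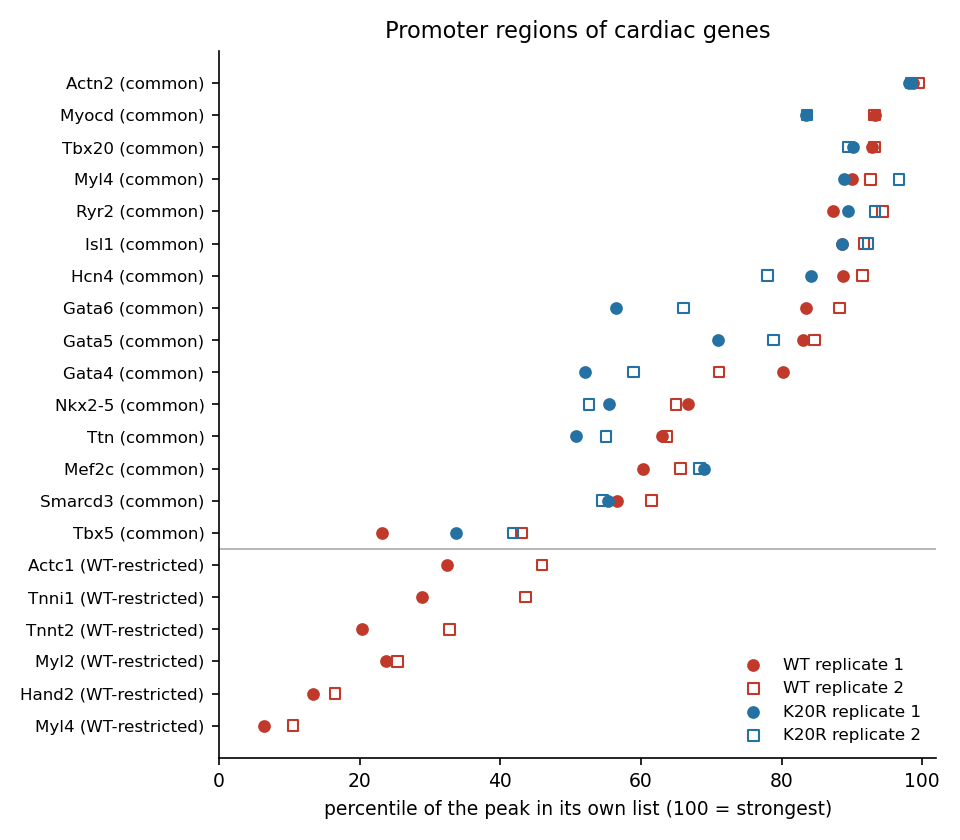
Percentile of each peak in its own list (100 = strongest) at promoter regions of the cardiac list, for WT replicates 1 and 2 (red) and K20R replicates 1 and 2 (blue), with WT-restricted regions below the grey line and common ones above it; a library without a point had no peak in the region. The WT-restricted regions lie between 6.36 (Myl4) and 45.9 (Actc1), below the WT points of 14 of the 15 common regions, the exception being Tbx5 at 23.1 and 43.0.

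Other lists held few members or none. Hnf4a, for a nuclear receptor of endoderm and liver, was 1 of 18 endoderm genes with a member, at 30.6 and 32.8 (chr2:163546546-163547156). The summit lay 87 bp upstream of the outermost TSS used here, but the gene as annotated in full begins farther upstream. Dlg2, for a postsynaptic scaffold, was 1 of 20 neuronal genes, with an alternative promoter at 45.0 and 10.5 that the WT replicates ranked very differently (chr7:91090238-91090523). No member lay at any of 27 early mesoderm, 22 pluripotency, 19 neuroectoderm, 18 blood and endothelium, 20 fibroblast, 16 epithelium or 16 housekeeping genes. Over all protein-coding genes 1.26% had a member, so the lack of members in lists this short is near that share. K20R-restricted promoter regions lay at Fgf8, Dppa4 and Tfap2a of these lists. Among 17 genes that the text of the study names, Tnnt2 alone had a member. Of the 20 fibroblast genes, taken as markers of the feeder cells, 12 had a common promoter region, while 64.4% of all protein-coding genes had one. The fibroblast count therefore does not identify feeder cells, and their part in the results was not tested.

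Further members at muscle genes were picked after their values were seen. Popdc2, for a membrane protein of heart and muscle, was at 25.3 and 43.3, and Myo18b, for a sarcomeric myosin, at 34.7 and 40.2. Mylk3, the cardiac myosin light chain kinase, was at 15.0 and 10.5, Hrc, a calcium-binding protein of the sarcoplasmic reticulum, at 15.0 and 19.7, and Mlip at 16.6 and 17.5. All of these were below the median common promoter in both WT lists. Members at other kinds of genes were not gathered in this way, and no share over all muscle genes was taken. The picks therefore do not show that muscle genes mark the set.

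The 20 members with the highest mean WT percentile, all at 64.0 or above, included no gene of the lists above. They lay at 4931440F15Rik, Grrp1, Hsdl1, Serpina3i, Kcnk16, Disp1, Als2cr12, Scel, Trmt13, Kctd14, Apof, Gpr35, Arl14, Shisa5, F2, Them5, Apc2, Aldh1a1, 6030498E09Rik and Phkg1. The first of these was at 91.2 and 86.4, with 101 and 128 reads and folds of 7.93 and 7.5, and lay 696 bp upstream of the TSS (chr11:29825961-29827182). The nearest region with a K20R peak was a common promoter region of the same gene, 193 bp away by edges and 1461 bp by summits. This common region had WT percentiles of 51.2 and 46.3 and K20R percentiles of 48.0 and 55.2, so the WT-restricted region was the stronger one in WT.

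Others of the 20 also had strong WT peaks. Serpina3i, a protease inhibitor gene (chr12:104262517-104263283), was at 74.0 and 82.2, with the highest folds of the group, 9.3 and 14.2, and its nearest K20R peak was 14289 bp away. Apof, for an apolipoprotein, was at 74.4 and 65.2, and F2, for prothrombin, at 64.2 and 71.5. Scel, for a protein of stratified epithelium, was at 74.8 and 72.4 with folds of 9.2 and 11.1. These were in the upper part of both WT lists.

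Disp1, which releases Hedgehog ligands from cells, had its member (chr1:183147028-183147867) at 67.5 and 84.8, at an alternative TSS 74029 bp from the outermost one. It was 1 of 8 members, out of 276, with 3 or more other WT-restricted regions within 50000 bp. The same was found at 442 of 13819 common promoter regions. Aldh1a1, for a retinaldehyde dehydrogenase that makes retinoic acid (chr19:20601548-20602326), was at 57.7 and 72.2, and its nearest K20R peak was 125103 bp away. Kcnk16, a potassium channel gene, was at 71.4 and 83.0 with no missing K20R number (chr14:20268947-20269798). Phkg1, for the muscle subunit of phosphorylase kinase, was at 71.5 and 56.5.

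Abca4, Foxp2 and Ikbke each had 2 members. At Foxp2, for a forkhead factor of brain and lung, they were at 41.8 and 54.3 and, 334 bp upstream of another internal TSS, at 21.6 and 0.184, with the nearest K20R peaks 213623 and 226580 bp away. Its outermost promoter was common, with WT percentiles of 84.1 and 84.1 and K20R percentiles of 78.1 and 77.9. At Abca4, a retinal lipid transporter gene, they were at 32.2 and 43.1 and at 20.2 and 22.6, and at Ikbke, a kinase gene of innate immunity, at 8.27 and 31.3 and at 14.7 and 2.93. The weaker Foxp2 member was among the weakest peaks of WT replicate 2.

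Motifs were searched within 100 bp of each strongest summit on both strands, as fixed letters. GATA factors act in heart, blood and endoderm, and T-box factors in the primitive streak and mesoderm. The GATA site AGATAA was found at 30 members (10.9%, 7.72 to 15.1), against 2.47% of all promoter regions, 1.91% of common ones, 5.44% of K20R-restricted ones and 14.6% of WT-restricted regions outside promoters. Restricted to CpG-poor regions it was 10.4% at members (7.3 to 14.6) and 3.43% at common promoter regions (2.86 to 4.12), and at matched strength 16 of 138 (11.6%) and 3.73% (2.45 to 5.63). These shares were not tested over regions.

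The 30 members with a GATA site had a median percentile of 25.9, about that of all members. They included Aldh1a1, Uty, Smad7, Popdc2, Myl2, F10, Hdac7 and Rbp2. The T-box site TCACACCT was found at 8 members (2.9%, 1.48 to 5.61), against 0.54% of all promoter regions and 2.89% of WT-restricted regions outside promoters, with 4931440F15Rik the 1 member that held both motifs. At matched strength the T-box shares were 1.45% (0.398 to 5.13) and 1.07% (0.489 to 2.31), with overlapping intervals.

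Of the promoter elements, the TATA box TATAAA was found at 19 members (6.88%, 4.45 to 10.5), against 2.3% of all promoter regions, and among CpG-poor regions at 6.32% of members (3.98 to 9.89) and 2.91% of common promoter regions (2.39 to 3.55). The GC box GGGCGG was found at 31 (11.2%, 8.03 to 15.5), against 56.8%, and the CCAAT box CCAAT at 68 (24.6%, 19.9 to 30.0), against 28.7%. The ETS site CCGGAAGT and the NRF1 site were at 0 of 276 members (upper bound 1.37%) and at 5.04% and 1.08% of all promoter regions. Even among CpG-poor regions the GC box was at 11.2% of members and 41.3% of common promoter regions.

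The AP-1 site TGANTCA was at 7.25% of members and 2.95% of all promoter regions, the TEAD site GGAATG at 11.6% and 6.8%, the E-box CAGCTG at 17.4% and 12.5%, and the TCF-LEF site CTTTGAA at 4.35% and 1.73%. The homeodomain site TAATTA was at 3.26% and 0.899%, the octamer ATGCAAAT at 2.17% and 1.02%, and the FOX site TGTTTAC at 2.17% and 1.41%. Among CpG-poor regions the E-box was at 17.5% of both members and common promoter regions. The AP-1 shares were then 7.43% (4.86 to 11.2) and 4.69% (4.02 to 5.47), the TEAD shares 11.9% (8.55 to 16.3) and 8.89% (7.96 to 9.92), and the TCF-LEF shares 4.46% (2.57 to 7.63) and 2.42% (1.95 to 3.01), with overlapping intervals in each case. The homeodomain shares were 3.35% (1.77 to 6.24) and 1.1% (0.798 to 1.52), and the octamer (2.23% and 1.35%) and FOX shares (2.23% and 1.93%) overlapped in their intervals. FOX sites were at 6.87% of WT-restricted regions outside promoters (members 1.0 to 4.66). The CArG box was at 0.725% and 0.723%, and the MEF2 site at 1.45% and 1.62%, both added after the member genes were seen. Several of these motifs can share a window, most often the CCAAT box and the E-box, at 12 members.

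The CTCF consensus was found at 5 members (1.81%, 0.776 to 4.17), against 1.09% of all promoter regions, 0.97% of common ones and 2.6% of WT-restricted regions outside promoters. Among CpG-poor regions the order turned, with 1.86% of members (0.796 to 4.28) and 2.24% of common promoter regions (1.78 to 2.81). The 5 members lay at Cox19, Spdef, Sptan1, Lrrn3 and Ly6g5b. A match is a description of letters and not of binding.

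**Figure D5:**
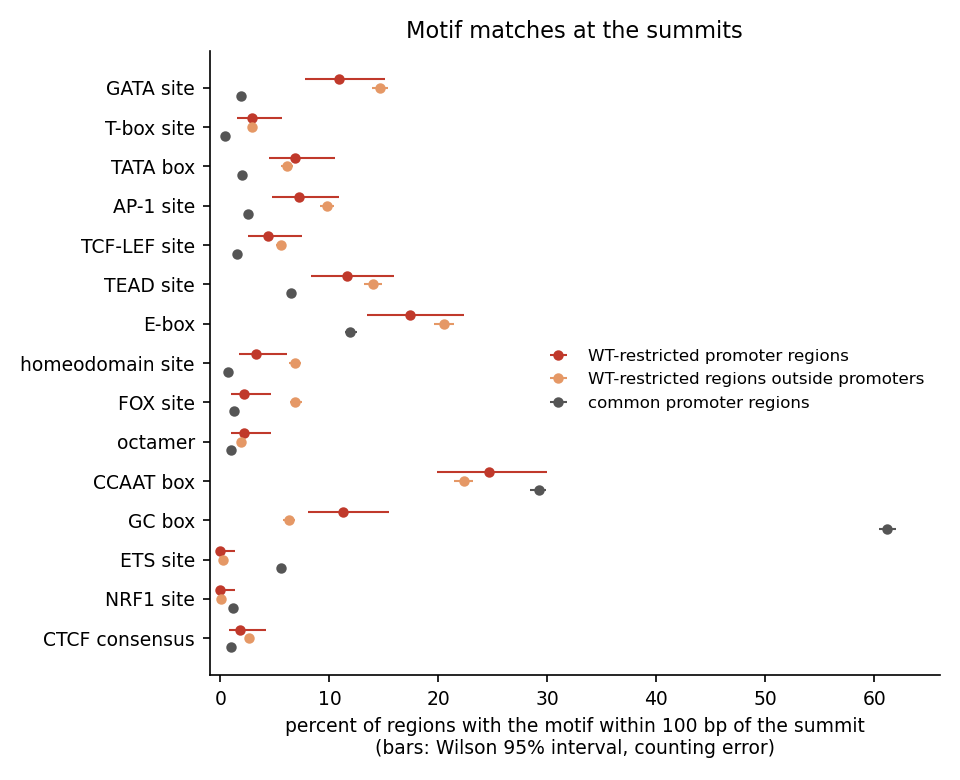
Percent of regions with each motif within 100 bp of the strongest summit, for members, WT-restricted regions outside promoters and common promoter regions; bars are Wilson 95% intervals for counting error. Members lie beside the regions outside promoters for GATA (10.9% and 14.6%), T-box and TATA and far below common promoter regions for the GC box (11.2% and 61.2%), while FOX and homeodomain shares of members are below those outside promoters.

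The surroundings of the members were examined for other WT-restricted regions. Within 50000 bp of them, 162 of 2063 other regions were WT-restricted (7.85%, 6.77 to 9.09), which is near the 8.12% (7.95 to 8.3) around common promoter regions and below the 12.0% (11.7 to 12.3) around WT-restricted regions outside promoters. At least 1 such neighbour was found at 120 members (43.5%), at 38.9% of common promoter regions and at 48.8% of WT-restricted regions outside promoters. In the surrounding 1000000 bp, common regions were lower in K20R (by over 0.3 on the log2 scale of summit pileup) around 3 members and higher around 4. Other promoter regions were not examined in this way. Members were spread over all chromosomes, from 0.609% of promoter regions on chromosome X to 2.72% on chromosome 1 among those other than Y.

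The Y chromosome stood apart. The WT lists had 5 and 6 peaks there, the K20R lists 1 and 2, and 2 of its 3 promoter regions (66.7%) were members. These were at Eif2s3y (chrY:1009906-1010813), for a translation initiation factor subunit, at 45.0 and 54.3, and at Uty (chrY:1245171-1246082), for a histone demethylase family protein, at 41.8 and 46.7. The promoter peak of Ddx3y was listed in WT replicate 2 alone. The 1 region of the Y chromosome with a peak in every library lies near its end, with WT percentiles of 88.1 and 80.3 and K20R percentiles of 58.8 and 68.6. Whether the K20R cells carry the Y chromosome in equal copy was not tested. Without these 2 there were 274 members.

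At the edge of the distance rule, the last members inside were at Rcc1 (975 bp, percentiles 18.2 and 22.4), Bahcc1 (992 bp, 29.2 and 19.1) and Aatk (998 bp, 1.31 and 2.58). The first regions outside were at Dlgap3 (1002 bp, 19.5 and 35.3), Dixdc1 (1002 bp, 36.2 and 48.1) and Ache (1007 bp, 45.8 and 31.1). The 3 regions inside had lower mean WT percentiles than the 3 outside.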

How the data were processed

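ATAC-seq peak lists of 2 WT and 2 CTCF-K20R libraries were analysed, with groups and replicate numbers taken from the sample titles. According to the study's methods, the authors trimmed reads with Trim_Galore, aligned them to mm10 with bowtie2, removed reads of low mapping quality, duplicates and blacklisted reads, and called peaks with MACS2. Each library has its own list. The deposited score, fold (a ratio of summit pileup to local background), −log10 p and −log10 q are the authors' values for each peak and were not recomputed. The weakest listed peaks have a p close to 0.01.

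Peaks were merged where they shared 1 bp. TSSs were those of protein-coding transcripts of protein-coding genes in GENCODE vM21 basic, which has the build of the lists. Percentiles rank −log10 p within each list. Summit pileups follow from the authors' fold and p of each peak, and 100% came out whole within 0.05 read. Lists of regions were described by counts with Wilson 95% intervals. Peak numbers per library were compared by an exact two-sided permutation test, and same-numbered libraries were also compared as pairs. Read depth was not given in the files, so peak numbers and pileups stand for precision. Named members were the 20 with the highest mean WT percentile, those at listed genes, genes with at least 2 members and 3 regions on each side of the distance limit. Members and lists were chosen with earlier results of these data known. Alternatives were other peak thresholds, TSS windows and TSS sets, overlap rules, sequence windows and leaving out each library. Scripts were tested on simulated data. Python 3.11.15 with numpy 2.4.6, pandas 2.3.3 and scipy 1.17.1 was used. RefSeq's promoter table was matched by 215 of 276 member symbols and was not used for values.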

Additional observations from a re-analysis of the deposited data

How the results depend on the processing

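The 276 WT-restricted promoter regions became 188 with a −log10 q of at least 5, 122 with at least 10, 164 with lists of equal length (the strongest peaks of each), 498 within 2000 bp of a TSS, 555 with TSSs of all transcripts, 272 with an overlap of at least 0.5 of the shorter peak and 108 where no K20R number was missing. The log2 ratio of WT- to K20R-restricted promoter regions was 0.91 and moved to 0.4, 0.16, 0.82 and 1.32 with the q thresholds and the windows, to 1.05 with all transcripts, to 0.84 with the overlap and to 1.2 without missing numbers, and it reversed to -0.68 with equal list lengths. The difference in promoter peaks per library, 225, reversed to -1.0 (exact permutation p = 1.0) with a −log10 q of at least 10 and to -235 (exact permutation p = 0.667) with equal lengths. Leaving out 1 library gave 335 to 489 regions, ratios of 0.15 (without K20R replicate 1) to 1.26 (without WT replicate 1) and differences of 157.5 to 292.5 peaks. The genotype left with 1 library then needs a peak in 1 list and the other in both, so these ratios are uneven by construction. With replicate number as a block, the differences of the pairs were 123 and 327, the mean was 225 and the exact permutation p was 0.5, the smallest that 2 pairs allow. Whether same-numbered libraries belong together is not given in the sources used here. The cause of these changes was not tested. By construction, the thresholds leave fewer peaks and leaving out a library makes the rule uneven.

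The median CpG ratio lay between 0.194 and 0.238 under every alternative run for it. The GATA share was 7.25% within 50 bp and 16.7% within 150 bp of the summit. The share of WT-restricted promoter regions whose gene had another common promoter region was taken over the regions found under each setting. It was 27.9% with the 500 bp window, 59.6% with 2000 bp, 22.7% with all transcripts and 55.6% without missing numbers. The median percentile of WT-restricted promoter regions was 49.3 and 62.1 with the q thresholds and 42.4 with equal lengths, which by construction leave stronger peaks. These are partly other regions: 101 of 188, 91 of 122 and 16 of 164 were not among the 276 members. Depth limits what the lack of a K20R peak means: a K20R summit of under 8 reads was not listed, and members had medians of 17 and 23 reads in WT.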
